A study of Mus musculus with 6 samples.

Results

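Interferon-stimulated genes are the genes that a cell transcribes once interferon has bound its receptors. The set described here holds 34 such genes out of 54532 in the count table, chosen by symbol for their known roles. They are 21 antiviral effectors of the type I response, 4 signalling factors, 2 RNA sensors and 7 interferon-inducible GTPases. The rule uses no measured value, but earlier results of these data were known when the members were chosen. Transcripts were counted by bulk RNA sequencing of whole mouse adrenal glands in 6 libraries, 3 labelled VEGF/LysM and 3 labelled WT, for a study of what macrophage VEGF-A does in the whole gland. LysM is another name of the lysozyme gene Lyz2 of myeloid cells, and VEGF names an endothelial growth factor. The labels do not give the allele, its promoter or the age and sex of the mice, nor do they state that replicates were separate animals, so each p measures a spread between samples that may be technical.

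Type I interferons (the alpha and beta families) bind the receptor of Ifnar1 and Ifnar2, and the kinases Jak1 and Tyk2 then act on transcription factors that include Stat2. Stat2 works with Irf9 in a complex that binds the interferon-stimulated response element (ISRE) of antiviral genes. Type II interferon (gamma, made by T and NK cells) binds Ifngr1 and Ifngr2 and leads to transcription from the gamma-activated site (GAS), also of Irf1. The guanylate-binding (Gbp) and immunity-related (Irg) GTPases attack the membranes around intracellular microbes and are known as strong targets of interferon gamma. Macrophages and endothelial cells are cell types in which both classes can be induced.

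The libraries held 16476879 to 18671950 counts, with 22230 to 23491 genes detected. Adrenal identity was clear: Star, the cholesterol carrier of steroid-making cells, stood at 11710 to 16990 CPM (counts scaled to a common library size by the trimmed mean of M values, TMM) in VEGF/LysM and at 10807 to 13376 CPM in WT. Star alone does not show how even the cortex share was. All 8 cortex markers listed, Star among them, were lowest in WT replicate 3. They took 2.19% of counts there, against 5.18 and 4.8% in WT replicates 1 and 2 and 4.49 to 5.5% in VEGF/LysM. VEGF/LysM replicate 3 and WT replicate 3 stood apart. Alb, the serum albumin gene of liver, had 18, 14 and 2869 counts in VEGF/LysM replicates 1, 2 and 3, against 1, 3 and 691864 counts in WT replicates 1, 2 and 3. The 8 hepatocyte markers listed took 0.0138 to 0.0935% of counts in VEGF/LysM, against 0.0349, 0.0231 and 5.72% in WT replicates 1, 2 and 3. Of these, Apoh, Serpina1c and Fgb were detected in both replicate 3 libraries and had 0 counts in replicates 1 and 2 of either group. Outside WT replicate 3 the hepatocyte share was mainly that of Cyp2e1. Cyp2e1 gave 5752 of 5884 hepatocyte marker counts in WT replicate 1 and 11352 of 15401 in VEGF/LysM replicate 3. The 10 lymphocyte markers listed summed to 13.2 to 18.2 CPM in VEGF/LysM, against 17.3, 31.3 and 350.9 CPM in WT replicates 1, 2 and 3. Fold changes of members that rest on these libraries are therefore mostly given with and without them. Values of genes outside the members, and counts of groups that did not overlap, are given with all libraries only.

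No member passed edgeR's test of VEGF/LysM against WT, although most members had somewhat lower values in VEGF/LysM. All 34 members were among the 16300 genes that passed the filter on low counts. edgeR's quasi-likelihood test with Benjamini-Hochberg adjustment called 0 of 34 members, where it called 0% of all genes in either direction. The adjusted p was 0.999 for 33 members and 1 for Ifi27. Of the members, 28 of 34 (82.4%) had a log2 fold change (VEGF/LysM minus WT) below 0, beside 49.7% of all genes tested. The median log2 fold change was -0.17 over the members and 0.0013 over all genes. At an unadjusted p under 0.05, 2 members (Bst2 and Ifitm3) were lower, beside 1.94% of all genes, and 0 were higher, beside 0.871%. In 3 members (Bst2, Ifitm3 and Ifit1), 8.82% of the list, each VEGF/LysM value lay below each WT value, beside 2.41% of all genes. The opposite arrangement occurred in 0 members and in 3.54% of all genes. In glands sequenced whole, fewer cells of a type and less RNA per cell cannot be told apart.

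**Figure D1:**
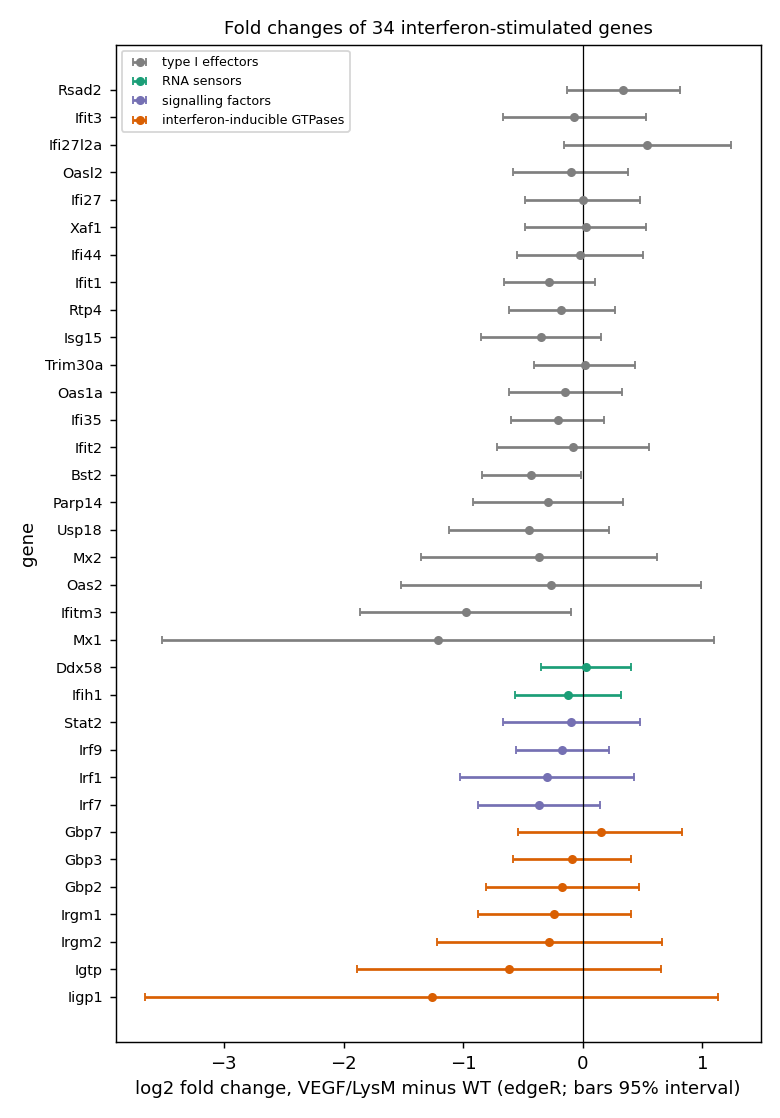
Log2 fold change, VEGF/LysM minus WT, of the 34 genes (points, edgeR; bars are 95% intervals; n = 3 libraries each), coloured by role. The interval lies below 0 for Bst2 and Ifitm3 and includes 0 for the other 32 genes; Iigp1 and Mx1 have the widest intervals.

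Among the type I effectors, 17 of 21 had a log2 fold change below 0, with a median of -0.18, and 0 passed the test. Bst2 encodes tetherin, which holds budding virus particles on the cell surface (ENSMUSG00000046718, chromosome 8, 71534255 to 71537456, minus strand, GRCm38). It stood at 136.1, 155.6 and 167.4 CPM in replicates 1, 2 and 3 of VEGF/LysM, against 184.1, 186.3 and 247.9 CPM in WT replicates 1, 2 and 3. The groups did not overlap, and WT replicate 3 was the highest library. Its log2 fold change was -0.43 ± 0.17 (SE), unadjusted p = 0.0434 and adjusted p = 0.999 in edgeR's test. Without WT replicate 3 the value was -0.28, and without both libraries that held liver transcripts it was -0.34.

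Ifitm3 encodes a membrane protein that blocks the fusion of viruses in endosomes (ENSMUSG00000025492, chromosome 7, 141009586 to 141010770, minus strand). Its values were 110.1, 110.8 and 94.5 CPM in VEGF/LysM replicates 1, 2 and 3, against 133.9, 144.5 and 344.3 CPM in WT replicates 1, 2 and 3. The VEGF/LysM values lay close together and below every WT value, while WT replicate 3 was far above the other WT libraries. The log2 fold change was -0.98 ± 0.37 (SE), unadjusted p = 0.0332 and adjusted p = 0.999 in edgeR's test. It shrank to -0.41 without WT replicate 3 and to -0.33 without both libraries that held liver transcripts. The part of liver or lymphocyte transcripts in these values was not tested.

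Ifit1 encodes a protein that binds viral RNA whose cap lacks the host's methyl marks (ENSMUSG00000034459, chromosome 19, 34640871 to 34650009, plus strand). It was at 26.7, 29.4 and 28.0 CPM in replicates 1, 2 and 3 of VEGF/LysM, against 32.1, 39.8 and 30.2 CPM in WT replicates 1, 2 and 3. The groups did not overlap, but the gap between the highest VEGF/LysM and the lowest WT library was small, and here WT replicate 3 was the lowest WT library. The log2 fold change was -0.28 ± 0.16 (SE) with an unadjusted p of 0.125 and an adjusted p of 0.999 in edgeR's test, and it ran from -0.36 without WT replicate 3 to -0.15 without WT replicate 2. Ifi27l2a, a small interferon-induced membrane protein, ran the other way. It had 95.3, 134.7 and 213.5 CPM in VEGF/LysM replicates 1, 2 and 3, against 93.4, 120.3 and 91.3 CPM in WT replicates 1, 2 and 3. VEGF/LysM replicate 3 alone exceeded the WT range by a wide margin, and the other VEGF/LysM libraries lay in or near it. The log2 fold change of Ifi27l2a was 0.54 ± 0.30 (SE) with an adjusted p of 0.999 in edgeR's test, and 0.18 without VEGF/LysM replicate 3.

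**Figure D2:**
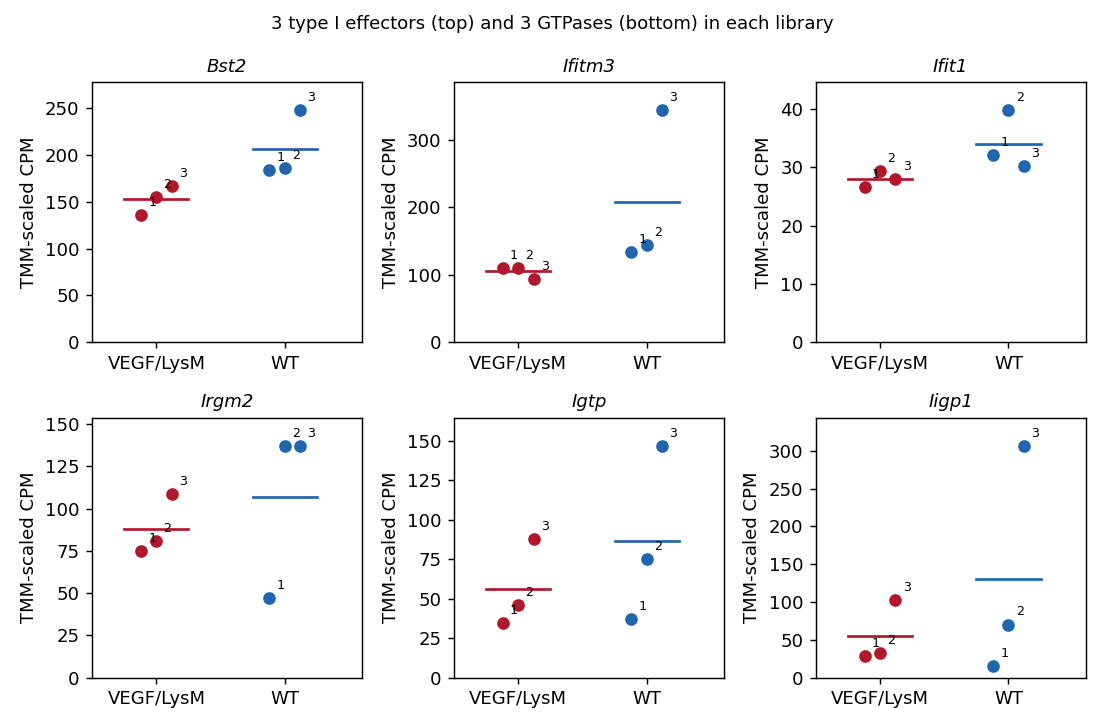
TMM-scaled CPM of Bst2, Ifitm3 and Ifit1 (type I effectors, top) and of Irgm2, Igtp and Iigp1 (GTPases, bottom) in each library; numbers are replicates and lines are group means. The groups are separate for the 3 effectors, which are the only members of any role with separate groups. They overlap for the 3 GTPases, where WT replicate 1 is the lowest WT library.

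The other effectors had overlapping groups. Besides Ifi27l2a, the effectors with a log2 fold change above 0 were Rsad2 (0.34), Xaf1 (0.026) and Trim30a (0.015). Rsad2, or viperin, makes a nucleotide that stops viral RNA synthesis, and Xaf1 is a promoter of cell death. Isg15, a ubiquitin-like protein that is joined to other proteins, had a log2 fold change of -0.35. Usp18, the protease that removes Isg15 and restrains the type I receptor, had -0.45. The oligoadenylate synthetase genes Oas1a and Oas2, whose products turn on the RNA-cleaving enzyme RNase L, had -0.15 and -0.27, and their relative Oasl2 had -0.10. Mx1 and Mx2, dynamin-like proteins that trap viral particles, had -1.21 and -0.37. Mx1 rested on few reads (20, 53 and 86 counts in VEGF/LysM replicates 1, 2 and 3, against 24, 53 and 228 counts in WT replicates 1, 2 and 3), and its value turned to 0.54 without WT replicate 3. Parp14, an ADP-ribosyltransferase, had -0.29, Ifi35 had -0.21 and Rtp4 had -0.18. Without WT replicate 3, Rsad2 was at 0.17, Usp18 at -0.18, Mx2 at -0.063 and Parp14 at -0.059. Ifit2, Ifit3, Ifi44 and Ifi27 lay between -0.082 and -0.0013.

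The abundance of the members differed widely. Per kilobase of merged exons, the highest median over the 6 libraries was that of Ifi27 at 375.1 CPM per kilobase, followed by Ifi27l2a at 232.8, Bst2 at 194.6 and Ifitm3 at 180.5. The ranges over libraries of these 4 genes overlapped in part (307.9 to 443.6 for Ifi27, 197.2 to 461.1 for Ifi27l2a, 150.7 to 274.5 for Bst2 and 139.4 to 507.8 for Ifitm3), so their order is not fixed by these libraries. Isg15 came next at 31.3 CPM per kilobase, and its highest library (35.8) lay below the lowest value of any of those 4 genes. The GTPases lay between 8.81 for Iigp1 and the value of Igtp, which ranked just below Isg15, and Mx1 was the lowest member at 0.729 CPM per kilobase. Ifi27 was the most even of these abundant genes, at 558.5, 620.5 and 464.0 CPM in replicates 1, 2 and 3 of VEGF/LysM, against 650.8, 541.9 and 451.7 CPM in WT replicates 1, 2 and 3. The log2 fold change of Ifi27 was -0.0013, with a 95% interval of -0.48 to 0.48.

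All 4 signalling factors had a log2 fold change below 0, with a median of -0.23, and 0 passed the test. Irf7, which amplifies the making of type I interferon, stood at 46.5, 54.8 and 65.6 CPM in replicates 1, 2 and 3 of VEGF/LysM, against 56.4, 68.6 and 90.8 CPM in WT replicates 1, 2 and 3. Its groups overlapped, with replicate 3 the highest library of each group, and its log2 fold change was -0.37 ± 0.22 (SE) with an adjusted p of 0.999 in edgeR's test. Irf1, a factor induced by both interferon types, was at 40.9, 36.9 and 67.7 CPM in replicates 1, 2 and 3 of VEGF/LysM, against 40.4, 64.2 and 74.2 CPM in WT replicates 1, 2 and 3. VEGF/LysM replicates 1 and 2 were level with WT replicate 1, and VEGF/LysM replicate 3 was level with the other WT libraries, giving -0.30 ± 0.31 (SE). Irf9, the DNA-binding part of the type I complex, read 62.4, 54.7 and 70.1 CPM in VEGF/LysM replicates 1, 2 and 3, against 59.7, 69.3 and 81.8 CPM in WT replicates 1, 2 and 3. Stat2, its partner, read 82.7, 78.4 and 128.9 CPM in VEGF/LysM replicates 1, 2 and 3, against 80.9, 109.3 and 119.9 CPM in WT replicates 1, 2 and 3. Both overlapped between groups, with log2 fold changes of -0.17 ± 0.17 for Irf9 and -0.10 ± 0.24 for Stat2 (SE), and the value of Stat2 turned to 0.018 without WT replicate 3. Without WT replicate 3, Irf7 was at -0.17, Irf1 at -0.12 and Irf9 at -0.052, all nearer 0. Without both libraries that held liver transcripts, Irf7 was at -0.30, Irf1 at -0.42, Irf9 at -0.13 and Stat2 at -0.23.

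The RNA sensors were the flattest of the roles. Ifih1 encodes the sensor of long double-stranded RNA, and it stood at 42.5, 42.7 and 38.3 CPM in replicates 1, 2 and 3 of VEGF/LysM, against 33.9, 49.5 and 51.1 CPM in WT replicates 1, 2 and 3. Ddx58 encodes RIG-I, the sensor of RNA with an uncapped end, and it stood at 91.0, 76.2 and 65.2 CPM in replicates 1, 2 and 3 of VEGF/LysM, against 70.1, 81.1 and 77.5 CPM in WT replicates 1, 2 and 3. The groups of both genes overlapped, with log2 fold changes of -0.12 ± 0.19 for Ifih1 and 0.023 ± 0.16 for Ddx58 (SE). VEGF/LysM replicate 3, the library of its group with the highest value of every GTPase, was the lowest of its group for both sensors.

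Over the 6 libraries the 7 GTPases varied more than the other roles. The highest library over the lowest had a median of 2.2 in the GTPases, 1.8 in the signalling factors, 1.7 in the effectors and 1.45 in the sensors. Log2 fold changes were below 0 for 6 of 7, the median was -0.24, 0 passed the test, and 0 had groups that did not overlap. Iigp1, an Irg GTPase that coats and breaks the vacuoles of intracellular parasites (ENSMUSG00000054072, chromosome 18, 60376027 to 60392634, plus strand), had 29.0, 32.3 and 102.2 CPM in VEGF/LysM replicates 1, 2 and 3, against 15.1, 70.3 and 306.9 CPM in WT replicates 1, 2 and 3. The 3 WT libraries spanned all VEGF/LysM values, and the highest of the 6 libraries was 20.4-fold above the lowest. Igtp, a regulator of other Irg proteins (ENSMUSG00000078853, chromosome 11, 58199556 to 58207591, plus strand), had 34.8, 46.0 and 87.8 CPM in VEGF/LysM replicates 1, 2 and 3, against 37.0, 75.4 and 147.0 CPM in WT replicates 1, 2 and 3. It held the same order within each group as Iigp1, with a 4.22-fold range. The log2 fold changes were -1.26 ± 1.01 for Iigp1 and -0.62 ± 0.54 for Igtp (SE, adjusted p = 0.999 each in edgeR's test). Both rested on the replicate 3 libraries: without that of WT, Iigp1 turned to 0.34 and Igtp stood at -0.0093, and without that of VEGF/LysM they stood at -2.09 and -1.09. Without both libraries that held liver transcripts, each was at -0.47.

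Irgm2 and Irgm1 are further regulators of the Irg proteins. Irgm2 had 74.8, 81.1 and 108.7 CPM in VEGF/LysM replicates 1, 2 and 3, against 47.1, 137.3 and 137.1 CPM in WT replicates 1, 2 and 3. Irgm1 had 59.3, 59.4 and 81.0 CPM in VEGF/LysM replicates 1, 2 and 3, against 51.3, 81.9 and 102.9 CPM in WT replicates 1, 2 and 3. For both, WT replicate 1 was the lowest of all libraries and VEGF/LysM replicate 3, the highest of its group, lay below WT replicates 2 and 3. Their log2 fold changes were -0.28 ± 0.40 for Irgm2 and -0.24 ± 0.27 for Irgm1 (SE), and -0.073 and -0.0077 without WT replicate 3. The guanylate-binding genes Gbp2, Gbp3 and Gbp7 had -0.17, -0.088 and 0.15, each with overlapping groups. Irgm2 is annotated from 58199618 to 58222782 on chromosome 11 (GRCm38, plus strand), which overlaps Igtp on the same strand, so the split of reads between these 2 genes is uncertain. Exons of Irf9, Gbp7, Rtp4 and Parp14 also overlap another annotated gene on the same strand. Those of Irf7, Irf1, Ifi35, Gbp2 and Usp18 overlap one on the opposite strand, and the libraries carry no strand. The split of reads is uncertain for these members too. Gbp and Ifit genes also have close relatives that can share reads.

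Promoter sequences were looked at for the response elements that the background names. RefSeq sequences on GRCm38.p6, from 250 bases before to 50 after the gene start, were at hand for 25 of 34 members; Oas2, Usp18, Mx1, Mx2, Rtp4, Ifi27l2a, Ifi27, Parp14 and Iigp1 were without one. For the ISRE, the letters GAAA, any 2 bases and GAAA again were searched on both strands and occurred in 17 of 25 members (68.0%), beside 3.99% of 27025 genes. They were in 6 of 6 GTPases, 8 of 13 effectors, 2 of 2 sensors and 1 of 4 signalling factors (Stat2). The letters TTCNNNGAA (GAS), also searched on both strands, occurred in 9 of 25 members (36.0%), beside 9.55% of all genes. Both motifs were in 3 of 6 GTPases (Igtp, Irgm2 and Gbp7) and 3 of 13 effectors, beside 0.614% of all genes. A match is a run of letters, not a shown binding site, and the members were chosen as genes known to respond to interferon.

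The promoters of Igtp and Irgm2 are shown because these neighbouring GTPases share most letters of an aligned stretch before their starts. Their ranges over libraries were 4.22-fold and 2.91-fold, but the split of reads between them is uncertain. The RefSeq start used for Irgm2 lies within its GENCODE gene, which begins at 58199618, inside Igtp. Capitals mark GAS and ISRE matches, from 5′ to 3′ on the gene strand, for bases -100 to -1 from the RefSeq start (chr11:58199456-58199555 for Igtp and chr11:58214877-58214976 for Irgm2, GRCm38.p6, both plus strand).

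Igtp: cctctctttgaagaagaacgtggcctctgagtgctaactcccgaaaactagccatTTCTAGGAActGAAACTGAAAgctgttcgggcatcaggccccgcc

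Irgm2: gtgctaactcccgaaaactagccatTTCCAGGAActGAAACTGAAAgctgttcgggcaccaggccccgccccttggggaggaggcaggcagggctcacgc

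In each, a GAS match stands just before an ISRE match on the same strand. Over 70 bases (-70 to -1 in Igtp against -100 to -31 in Irgm2, with no gaps) 68 were identical and 2 differed.

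The promoters of the effectors Bst2, Ifit1 and Isg15 and of the signalling factor Irf1 are shown for comparison with the GTPases, the first pair because their groups did not overlap. They cover chr8:71537523-71537622 (minus strand), chr19:34640769-34640868 (plus), chr4:156200819-156200918 (minus) and chr11:53769894-53769993 (plus) on GRCm38.p6, with matches in capitals.

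Bst2: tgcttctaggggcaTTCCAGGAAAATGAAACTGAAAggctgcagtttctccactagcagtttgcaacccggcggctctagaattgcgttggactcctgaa

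Ifit1: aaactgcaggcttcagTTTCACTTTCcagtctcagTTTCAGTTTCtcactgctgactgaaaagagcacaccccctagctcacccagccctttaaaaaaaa

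Isg15: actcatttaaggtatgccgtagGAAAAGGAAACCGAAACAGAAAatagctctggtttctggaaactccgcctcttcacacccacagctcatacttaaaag

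Irf1: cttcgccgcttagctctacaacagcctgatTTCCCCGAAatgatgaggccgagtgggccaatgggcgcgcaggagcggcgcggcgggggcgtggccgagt

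Bst2 holds a GAS match that overlaps the first of 2 overlapping ISRE matches. Ifit1 holds 2 separate ISRE matches that read on the opposite strand, and Isg15 holds 3 that overlap in a row. Irf1 holds a GAS match and no ISRE match in this window. Among members with both motifs, Bst2 and Ifitm3 had groups that did not overlap, whereas the groups of Igtp, Irgm2, Gbp7 and Oas1a overlapped. A link between motifs and the separation of groups was not tested.

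The comparison of effectors with GTPases over the 6 libraries showed where they parted. For each gene the log2 CPM of a library was taken minus the mean of that gene over the 6 libraries, and the median over the list was formed per library. The median of the effectors was -0.30, -0.071 and 0.17 in VEGF/LysM replicates 1, 2 and 3, against -0.069, 0.11 and 0.13 in WT replicates 1, 2 and 3. The median of the GTPases was -0.28, -0.22 and 0.25 in VEGF/LysM replicates 1, 2 and 3, against -0.75, 0.28 and 0.54 in WT replicates 1, 2 and 3. The difference of effectors minus GTPases was -0.021, 0.15 and -0.08 in VEGF/LysM replicates 1, 2 and 3, against 0.68, -0.17 and -0.42 in WT replicates 1, 2 and 3. In VEGF/LysM the lists lay close together, whereas in WT the GTPases were the lower class in replicate 1 and the higher class in replicates 2 and 3. The difference averaged 0.016 ± 0.12 in VEGF/LysM and 0.030 ± 0.58 in WT (SD, n = 3 each), so the group means were closer than the spread between replicates.

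**Figure D3:**
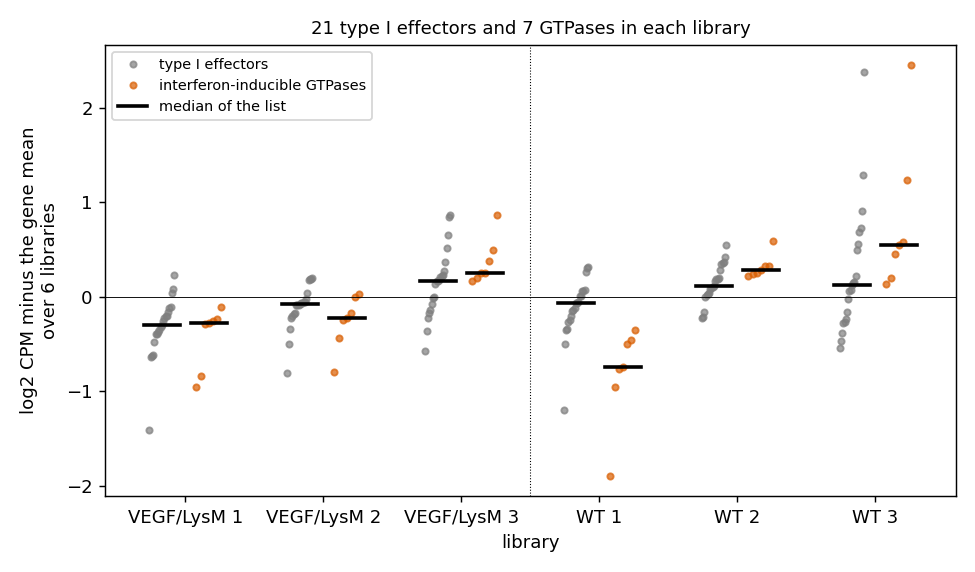
Log2 CPM minus the mean of the gene over 6 libraries, for the 21 type I effectors (grey) and 7 GTPases (orange) in each library; black bars are list medians. The GTPase median is the lower in WT 1 (-0.75 against -0.069 for effectors) and the higher in WT 3 (0.54 against 0.13), and the lists lie close together in the VEGF/LysM libraries.

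The same contrast appeared in summed counts, a ratio that no scaling of libraries can change. Effector counts were 4.04, 4.11 and 2.67 times the GTPase counts in VEGF/LysM replicates 1, 2 and 3, against 5.99, 2.90 and 1.93 times in WT replicates 1, 2 and 3. The means were 3.61 ± 0.812 in VEGF/LysM and 3.61 ± 2.12 in WT (SD, n = 3 each). The WT libraries thus held both the highest and the lowest ratio. Sums lean on a few abundant genes, unlike the list medians. Ifi27 gave 11444 of 27671 effector counts in WT replicate 1 and 6083 of 23088 in WT replicate 3. Iigp1 gave 265 of 4621 GTPase counts in WT replicate 1 and 4133 of 11966 in WT replicate 3.

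The gap among WT libraries was present also between the WT libraries with few liver transcripts. WT replicate 2 exceeded WT replicate 1 in 7 of 7 GTPases, by 0.60 to 2.22 on the log2 scale with a median of 1.03, and in 17 of 21 effectors, with a median of 0.28. Over all genes tested, 51% were higher in WT replicate 2 and the median difference was 0.0097. The gap was not particular to the GTPases. WT replicate 2 was the higher in 10 of 10 macrophage markers (median 0.32) and 9 of 10 lymphocyte markers (median 0.81). This held for 3 of 8 endothelial, 3 of 8 cortex and 0 of 5 medulla markers. WT replicate 1 was the lowest library of its group for 7 of 7 GTPases and 11 of 21 effectors, beside 33.4% of all genes. VEGF/LysM replicate 3 was the highest of its group for 7 of 7 GTPases and 14 of 21 effectors, beside 38.4% of all genes. It was also the highest of its group for 9 of 10 macrophage, 6 of 10 lymphocyte and 2 of 8 endothelial markers. These are differences between single libraries of one group and carry no test.

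WT replicate 3 was the highest or the lowest library of the effectors about as often as over all genes. It was the highest of all 6 libraries for 7 of 21 effectors and 4 of 7 GTPases, beside 28.4% of all genes. It was the lowest of all for 6 of 21 effectors (Rsad2, Ifit3, Ifi27l2a, Oasl2, Ifi27 and Xaf1) and for 0 of 7 GTPases, beside 29.7% of all genes. Rsad2 stood at 54.2, 52.7 and 51.1 CPM in replicates 1, 2 and 3 of VEGF/LysM, against 40.3, 53.0 and 31.9 CPM in WT replicates 1, 2 and 3. Its VEGF/LysM libraries were nearly equal, and WT replicates 1 and 3 lay below them. In the same library the 8 cortex markers took 2.19% of counts, where they took 4.49 to 5.5% in VEGF/LysM and 4.8% and 5.18% in the other WT libraries. The part of this lower share in the member values was not tested.

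**Figure D4:**
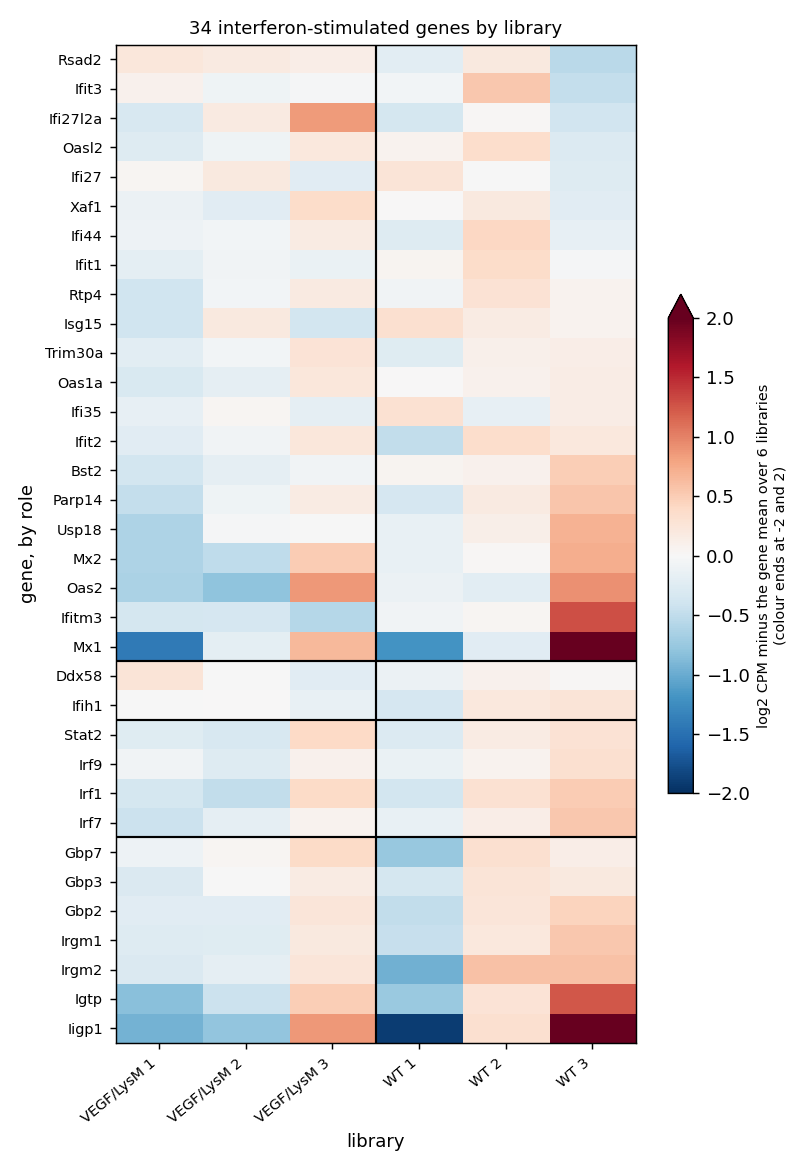
Log2 CPM minus the mean of the gene over 6 libraries for each of the 34 genes (rows, by role: effectors, sensors, signalling factors, GTPases) and library (columns). The GTPase rows are low in WT 1 and above their mean in WT 3, by most in Iigp1 and Igtp and by little in Gbp7. Upper effector rows such as Rsad2 and Ifit3 are low in WT 3.

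The interferons themselves were at the limit of detection. None of 11 listed ligand genes passed the filter on low counts, and together they had 6, 5 and 25 counts in VEGF/LysM replicates 1, 2 and 3, against 13, 8 and 9 counts in WT replicates 1, 2 and 3. Ifng, the interferon gamma gene, had 1, 3 and 9 counts in VEGF/LysM replicates 1, 2 and 3, against 0, 0 and 2 counts in WT replicates 1, 2 and 3. Ifnb1, the interferon beta gene, had a single read, 1 count, in VEGF/LysM replicate 3 and was at 0 elsewhere. VEGF/LysM replicate 3 had the most ligand counts, at a depth where differences between libraries could not be resolved.

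The receptors were readily detected and nearly level. Ifnar1 stood at 65.4 to 74.0 CPM in VEGF/LysM and 62.0 to 70.6 CPM in WT, a log2 fold change of 0.033 ± 0.12 (SE). Ifnar2 stood at 64.5 to 73.6 CPM in VEGF/LysM and 72.2 to 78.2 CPM in WT, a log2 fold change of -0.091 ± 0.12. Ifngr1 and Ifngr2, the chains of the interferon gamma receptor, had -0.017 ± 0.17 and -0.079 ± 0.14. Ifngr1 ran from 58.0 to 62.7 CPM in VEGF/LysM and from 49.9 to 75.2 CPM in WT, and Ifngr2 from 37.1 to 42.6 CPM in VEGF/LysM and from 37.4 to 45.4 CPM in WT. Of 9 receptor and kinase genes, 8 were tested and 0 passed, with a median of -0.032. The median deviation of this list over the libraries ran from -0.033 to 0.03 in VEGF/LysM and from -0.14 to 0.11 in WT, a far narrower range than that of the GTPases.

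Transcription factors outside the members resembled the signalling factors. All 7 were tested, 7 of 7 had a log2 fold change below 0 with a median of -0.37, and 0 passed. Irf8, a factor of macrophages and dendritic cells, was at 51.1, 50.7 and 73.8 CPM in replicates 1, 2 and 3 of VEGF/LysM, against 65.1, 81.8 and 79.6 CPM in WT replicates 1, 2 and 3. For Irf8, VEGF/LysM replicate 3 alone reached the WT range, and the log2 fold change was -0.37 ± 0.19 (SE, adjusted p = 0.999 in edgeR's test). Among 11 other sensing genes, 5 were below 0 and 0 passed. Sting1, the adaptor of DNA sensing, ran from 5.45 to 8.95 CPM in VEGF/LysM and from 8.36 to 15.2 CPM in WT (-0.60 ± 0.31, SE). Mavs, the adaptor of Ifih1 and Ddx58, ran from 48.0 to 56.2 CPM in VEGF/LysM and from 54.5 to 85.9 CPM in WT (-0.35 ± 0.19, SE). Among 7 negative regulators, 6 were tested, 5 were below 0 and 0 passed. Ptpn6, a phosphatase abundant in blood cells, stood at 9.67 to 19.2 CPM in VEGF/LysM, against 12.9, 17.8 and 83.4 CPM in WT replicates 1, 2 and 3, so its value of -1.39 ± 0.71 (SE) came with the library rich in lymphocyte markers. Ptpn2, a phosphatase of Jak and Stat proteins, ran from 25.6 to 28.4 CPM in VEGF/LysM and from 23.2 to 24.5 CPM in WT (0.15 ± 0.14, SE), the gene of that list whose VEGF/LysM values all lay above WT.

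Interferon-stimulated genes outside the members also had values mostly lower in VEGF/LysM, with none past the test. In these lists WT replicate 3 was the highest library for 16 of 29 other effectors tested and 9 of 12 other GTPases, beside 28.4% of all genes. Fold changes of these lists without that library are not given. Of 30 other effectors, 29 were tested and 0 passed. A log2 fold change below 0 was found in 21 of 29 (72.4%), beside 49.7% of all genes, with a median of -0.25. The smallest p among them belonged to Oasl1 (-0.79 ± 0.46, SE) and Ifi27l2b (-1.42 ± 0.85, SE), both highest in WT replicate 3. Oasl1 ran from 4.94 to 7.77 CPM in VEGF/LysM and from 6.08 to 17.7 CPM in WT, and Ifi27l2b from 0.352 to 0.824 CPM in VEGF/LysM and from 0.567 to 3.94 CPM in WT. All 12 other GTPases were tested, 11 of 12 (91.7%) were below 0 with a median of -0.26, and 0 passed. WT replicate 1 was the lowest of its group in 12 of 12 of them, and VEGF/LysM replicate 3 the highest of its group in 12 of 12. Ifi47, an Irg GTPase, had 7.80, 15 and 25.9 CPM in VEGF/LysM replicates 1, 2 and 3, against 13.1, 21.4 and 44.0 CPM in WT replicates 1, 2 and 3. Tgtp1, another Irg GTPase with a close copy in Tgtp2, had 2.64, 2.89 and 7.95 CPM in VEGF/LysM replicates 1, 2 and 3, against 1.88, 6.80 and 17.3 CPM in WT replicates 1, 2 and 3. Both followed the order of Igtp within WT, and their log2 fold changes were -0.69 ± 0.56 for Ifi47 and -0.94 ± 0.80 for Tgtp1 (SE). The range over the 6 libraries, as highest over lowest, had a median of 5.24 in these 12 GTPases, 2.2 in the 7 member GTPases, 1.7 in the 21 effectors and 1.78 over all genes. The other GTPases were less abundant, summing to 66.1 to 251.4 CPM per library, so counting error is larger in them.

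Chemokines known as targets of interferon gamma varied widely within each group. Of 4, 3 were tested and 0 passed. Cxcl9, which draws T cells, was at 4.87, 3.21 and 11.7 CPM in replicates 1, 2 and 3 of VEGF/LysM, against 2.79, 8.5 and 24.6 CPM in WT replicates 1, 2 and 3. Ccl5, made by T and NK cells among others, was at 1.93, 2.37 and 7 CPM in replicates 1, 2 and 3 of VEGF/LysM, against 2.62, 4.90 and 41.1 CPM in WT replicates 1, 2 and 3. Replicate 3 was the highest library of each group for both, with log2 fold changes of -0.85 ± 0.81 for Cxcl9 and -2.10 ± 1.08 for Ccl5 (SE).

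Cell type markers moved with the GTPases in part. The median deviation of 10 lymphocyte markers was -0.78, -0.87 and -0.17 in VEGF/LysM replicates 1, 2 and 3, against -0.70, 0.064 and 3.34 in WT replicates 1, 2 and 3. Lymphocyte markers were thus highest in WT replicate 3 and next in WT replicate 2, whose member GTPase medians were also the highest, though by summed GTPase CPM VEGF/LysM replicate 3 (574.6) stood above WT replicate 2 (561.0), while their sum in VEGF/LysM replicate 3 (16.4 CPM) lay between those of replicates 1 and 2 of its group (18.2 and 13.2 CPM). All 10 lymphocyte markers were highest in WT replicate 3. The 10 macrophage markers had medians of -0.072, -0.20 and 0.27 in VEGF/LysM replicates 1, 2 and 3, against -0.068, 0.20 and -0.11 in WT replicates 1, 2 and 3. They were highest in VEGF/LysM replicate 3, and in WT replicate 3 they lay below their mean while the GTPases lay above theirs. The 8 endothelial markers stayed between -0.11 and 0.05 in VEGF/LysM and between -0.089 and 0.17 in WT, and were lowest in the replicate 3 libraries. The 5 plasmacytoid dendritic cell markers, for a cell type that makes type I interferon, summed to 7.62 to 10.3 CPM in VEGF/LysM and 7.42 to 24.7 CPM in WT, with WT replicate 3 the highest. Neutrophil markers gave 6 to 66 counts in VEGF/LysM and 11 to 24 counts in WT, near 0. The part of these cell types in the member values was not tested.

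**Figure D5:**
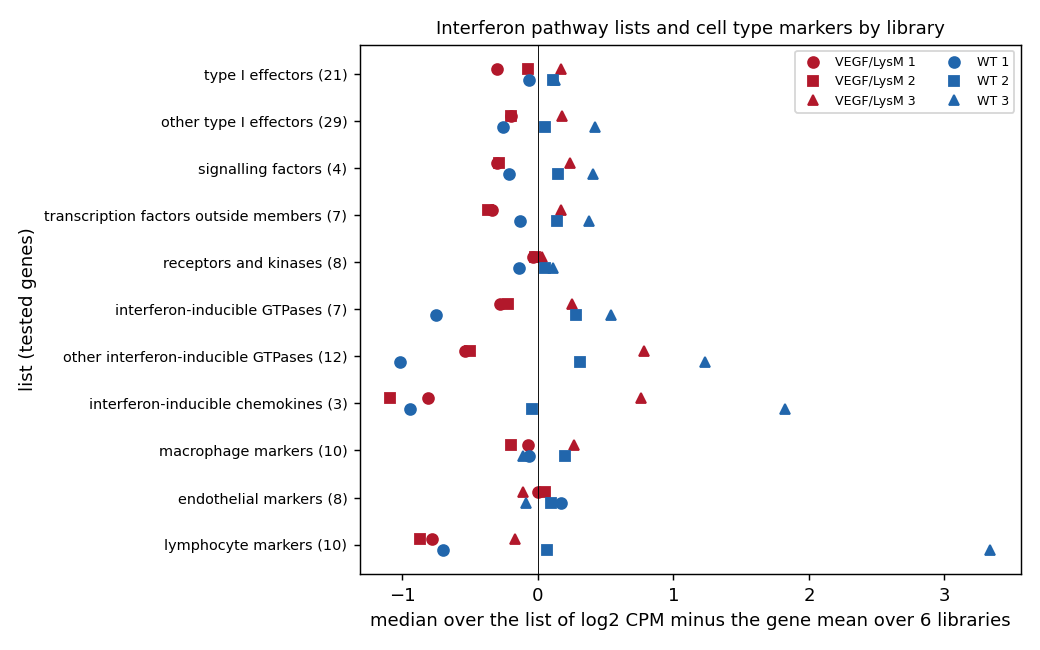
Median over each list of log2 CPM minus the mean of the gene over 6 libraries (x axis), for interferon lists and cell type markers (number of tested genes in brackets); red is VEGF/LysM, blue is WT, and shapes are replicates. Both GTPase lists and the chemokines spread more than the effectors and receptors, with WT 3 at the right; lymphocyte markers reach 3.34 in WT 3.

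Left-out libraries changed the size of the list medians but not their sign. Without WT replicate 3 the median log2 fold change was -0.061 over the members, -0.12 over the effectors and -0.0077 over the GTPases. Without VEGF/LysM replicate 3 the medians were -0.30 over the members, -0.26 over the effectors and -0.41 over the GTPases. Without both, they were -0.23, -0.27 and -0.16, with 29 of 34 members below 0 and 0 called. Members below 0 numbered 24 of 34 without WT replicate 3, among them 4 of 7 GTPases, and 23 of 34 without WT replicate 2. The difference of median log2 fold changes, effectors minus GTPases, was 0.065 with all libraries and -0.11 without WT replicate 3. Its sign thus depended on that library. It also turned without WT replicate 2 (-0.037). The medians formed per library gave the other order even with all libraries. There effectors minus GTPases averaged 0.016 in VEGF/LysM and 0.03 in WT, closer than the spread between replicates.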

How the data were processed

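Bulk RNA-seq counts per gene were analysed in 3 VEGF/LysM and 3 WT libraries of adrenal gland. Per the labels' protocols, RNA of high integrity went into Smart-seq2 libraries, which carry no strand. The submitters' processing notes name kallisto, DESeq2 1.36.0 and mm10. The sources used here give neither their roles nor the annotation. The deposited table holds whole-number counts, not normalised, and was matched to samples by title. The sources used here do not say how transcript estimates became whole numbers.

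Counts were filtered with filterByExpr (minimum count 10, minimum total count 15), scaled by TMM (factors 1.02 to 1.05, and 0.84 in WT replicate 3) and tested with edgeR 4.0.16 (R 4.3.3), quasi-likelihood, group as the only term. Benjamini-Hochberg adjustment ran over all 16300 genes, with a threshold of 0.05. Errors and 95% intervals come from that fit. Log2 CPM used a prior count of 1. The biological coefficient of variation was 0.365, and depth leaves genes near 1 CPM with large counting error. An exact permutation test of 3 against 3 cannot go below p = 0.1, so single values were not tested alone. The steps were also run on simulated counts with less spread between libraries than these data and no library like WT replicate 3. That run does not show what could be detected here.

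Gene coordinates are GENCODE annotation of GRCm38, the assembly mm10 names; promoters are RefSeq sequences. Members and lists were chosen with earlier results of these data known. All 34 members were named; library values were given for the 4 smallest p per role and for members whose groups did not overlap, and, outside the members, library values or group ranges were given for fixed ligand and receptor genes and the 2 smallest p per list; 1 gene this rule names is not reported here. Rsad2, Ifi27 and Mx1 were given in every library after their values were seen. Alternatives were DESeq2 size factors, library size alone, no filter, a replicate block, a higher expression minimum (1 CPM, at least 3 libraries), DESeq2 1.42.0, limma-voom (limma 3.58.1) and left-out libraries.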

Additional observations from a re-analysis of the deposited data

How the results depend on the processing

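The count of members called was 0 under every alternative, and the smallest adjusted p of a member under any of them was 0.656. The count of all genes called was 0 to 1 over the left-out libraries, with 1 without WT replicate 3, and 0 otherwise. At an unadjusted p under 0.05, edgeR found 459 genes, DESeq2 542 and limma-voom 224. Of 476 member fold changes under the alternatives, 443 kept their sign and side of the threshold and 33 changed sign; 18 members never changed sign. Over libraries left out singly the median log2 fold change ran from -0.30 to -0.061 (members), -0.26 to -0.057 (effectors) and -0.47 to -0.0077 (GTPases), and the difference of effectors minus GTPases from -0.11 to 0.22. That difference was also below 0 with limma-voom (-0.049).

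Signs turned for Ifi44 (0.035) and Ifi27 (0.051) with library size alone, which moved the median of all genes to 0.069. They also turned with limma-voom for Ifi27 (0.0074) and Xaf1 (-0.0026), and without both WT replicate 3 and VEGF/LysM replicate 3 for Xaf1 (-0.27), Trim30a (-0.061) and Ifih1 (0.039). Over libraries left out singly or both together, the values that crossed 0 ran from -0.30 to 0.09 for Ifit2, -0.29 to 0.25 for Ifit3, -0.38 to 0.064 for Oasl2, -1 to 0.18 for Oas2, -0.19 to 0.22 for Ifi44, -1.81 to 0.54 for Mx1, -0.13 to 0.14 for Ifi27, -0.27 to 0.14 for Xaf1, -0.13 to 0.10 for Trim30a, -0.36 to 0.018 for Stat2, -0.29 to 0.039 for Ifih1, -0.13 to 0.15 for Ddx58, -0.40 to 0.022 for Gbp2, -0.25 to 0.023 for Gbp3, -0.12 to 0.36 for Gbp7 and -2.09 to 0.34 for Iigp1. The cause was not tested.

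Whether replicate numbers pair the samples is not known. Deviations of same-numbered libraries correlated at 0.06, -0.02 and 0.25, and WT replicate 2 correlated best with VEGF/LysM replicate 1 (0.32). With 3 libraries a group, these correlations cannot settle pairing. With the replicate block 0 genes were called, 270 had an unadjusted p under 0.05, the medians were -0.16 (members), -0.19 (effectors) and -0.15 (GTPases), the difference was -0.039, and Ifi44 (0.0042) and Ifi27 (0.0046) changed sign. With 3 libraries a group and a spread set largely by single libraries, the intervals of Iigp1 and Mx1 span several log2 units.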
